A study of Mus musculus with 24 samples.

Results

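The genes described here are 9 enzymes and readers of DNA methylation, namely Dnmt1, Uhrf1, Dnmt3a, Dnmt3b, Tet1, Tet2, Tet3, Tdg and Mbd2. They were chosen by name, as probes whose gene name on the array was that of a member or of an older synonym, and account for 9 of the 27597 genes and 17 of the 41174 probes on the array. Their RNA was measured on 12 Agilent 2-colour arrays, in cells of the mouse neuroblastoma line N1E-115, which serves as a neuronal model. WT is the untransfected line. TO cells carry transcobalamin, the blood carrier of cobalamin (vitamin B12), fused through its N-terminus to oleosin, a protein of oil bodies, and the fusion protein binds cobalamin strongly. OT cells carry the fusion through the C-terminus, for which no cobalamin binding was detected. Each line was grown in proliferation medium with 10% fetal calf serum (WT-p, TO-p and OT-p) or in differentiation medium with 2.5% serum and 1.25% DMSO (WT-d, TO-d and OT-d), which gave 6 groups of 4 samples and 24 samples in all. The 4 samples of a group are given as biological replicates. Neither the number of cultures behind them nor that of clones per construct is stated, so p-values reflect the spread among these samples alone, which may be technical. In each group 1 sample carries the letter b after a number that another sample of the group also has, with no explanation of the letter. Calls of the 9 genes that were lost without these 6 samples are named beside them. All groups share the parental line, and the comparisons share samples with each other.

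DNA methylation in mammals sits mostly on the cytosine of CpG dinucleotides. Dnmt1 copies the pattern onto the new strand behind the replication fork, where Uhrf1 recognises hemimethylated CpG sites and recruits it, while Dnmt3a and Dnmt3b place methyl groups on unmethylated sites. The Tet enzymes oxidise methylcytosine, Tdg cuts out the oxidised bases so that base excision repair can replace them with cytosine, and Mbd2 reads methylated CpG sites for the NuRD repressor complex. The methyl groups come from S-adenosylmethionine, whose supply depends on methionine synthase, a cobalamin enzyme.

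Promoters are shown for the maintenance genes, Uhrf1 and Dnmt1, the 2 of the 9 genes whose windows held the letters of an E2F-like site, and they were picked after the matches were seen. The windows of Dnmt3b and Tdg held no such match. The RefSeq promoter table (GRCm38.p6) held 13 windows, from 250 bases before to 50 after a transcript start, for 8 of the 9 genes. The stretches below are printed in the direction of transcription, and capitals mark matches to the letters TTTNNCGC, a loose form of the E2F site, on either strand. The first lies at chr17:56303247-56303336 (plus strand, bases -90 to -1 of start 1 of Uhrf1), the second at chr17:56304113-56304222 (plus strand, bases -200 to -91 of start 2) and the third at chr9:20952824-20952853 (minus strand, bases -230 to -201 of start 3 of Dnmt1).
Uhrf1 start 1: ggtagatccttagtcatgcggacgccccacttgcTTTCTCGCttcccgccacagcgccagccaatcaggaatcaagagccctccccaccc
Uhrf1 start 2: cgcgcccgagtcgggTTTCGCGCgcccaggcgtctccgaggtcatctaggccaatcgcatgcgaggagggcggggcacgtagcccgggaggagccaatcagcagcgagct
Dnmt1 start 3: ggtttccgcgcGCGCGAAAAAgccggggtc

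The match began at base -56 of Uhrf1 start 1 and at base -185 of Uhrf1 start 2. In Dnmt1 start 3 there were 2 overlapping matches at -219 and -217, and another one at base 33. Such letters occurred in 5.17% of the 32851 promoter windows in the table, in 3 of the 13 windows of the 9 genes, and in 8 of 15 windows of a list of 16 replication and proliferation genes described below. The E-box CACGTG, present in 7.15% of windows, was found at start 3 of Dnmt3a and at Tdg. The CCAAT box, searched as CCAAT, was in 6 of the 13 windows, among them starts 1 and 3 of Dnmt1 and both starts of Uhrf1, and in 37.4% of all windows. The GC box, searched as GGGCGG, was in 10 of the 13 and in 35.7% of all. Each motif was searched on both strands, matches to different motifs did not overlap in the windows of the 9 genes, and a match is a description of the letters only. The ratio of observed to expected CpG was highest at Tet2 (1.17) and above 0.6 in 8 of the 13 windows, against 35.8% of all windows. It was 0.10, 0.50 and 0.91 at the 3 starts of Dnmt1.

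Levels are given as normalized log2 intensity of the probe with the highest mean, so they are compared between samples and never between genes. The share of spots well above background ran from 54.3 to 65.9% over the samples, and no spot was saturated. The probes that stand for the 9 genes were well above background in all 24 samples, so the filter on dim genes, which left 16241 genes, had no part in which of them were tested. All 13 markers of sympathetic neuroblastoma identity were well above background in all samples, but many differed between groups. Th had group means from 11.79 to 12.88 and Hand2 from 10.99 to 11.46, while Ddc, which makes dopamine, ran from 7.74 in TO-p to 11.45 in OT-d. In TO-d 11 of the 13 were lower than in OT-d (median -0.58), and in OT-d 10 of the 13 were higher than in WT-d (median 0.75). Of all genes, 39.9 and 51.7% passed in these comparisons in either direction. Of 8 glial markers 2 or 3 were above background in all samples of a group, of 7 blood and endothelial markers 0 or 1, and of 8 fibroblast and smooth muscle markers 4 or 5, and the leukocyte marker Ptprc was above background in no sample. Some of these moved with the comparisons too. Col1a1 and Pdgfrb in TO-p exceeded OT-p by 1.63 and 1.62 log2 units, although the summed level of the fibroblast and smooth muscle list was 13.20 to 13.33 in TO-p and 13.20 to 13.28 in OT-p. Of the 5 tested genes of that list, 2 were higher and 1 lower in TO-p (median -0.04), where 55.9% of all genes passed in either direction. Mbp was 9.07 in WT-p and 10.82 in WT-d, and the summed level of the glial list 10.05 to 10.45 and 11.25 to 11.31. Of 3 tested glial markers, 2 were higher and 1 lower in WT-d than in WT-p. The part of such markers in the results was not tested. The arrays measure bulk RNA, in which fewer cells of a type and less RNA per cell cannot be told apart.

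The first question was how each line changed between the media. In WT, 7 of the 9 genes passed the test between WT-d and WT-p, 6 of them lower in differentiation medium, while 66.5% of all genes passed, 30.9% as lower. In OT, 7 passed, all lower, against 67.6% of all genes (31.0% lower). In TO, 5 passed, all lower, against 52.3% (26.3% lower). The counts in either direction are near these background shares. The median change of the 9 genes was -0.52 in WT, -0.26 in TO and -0.37 in OT, where that of all genes was 0.06, -0.00 and 0.04. Dnmt1, Uhrf1, Dnmt3b and Tdg fell in all 3 lines without overlap between media, while Tet1 and Mbd2 moved little.

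**Figure D1:**
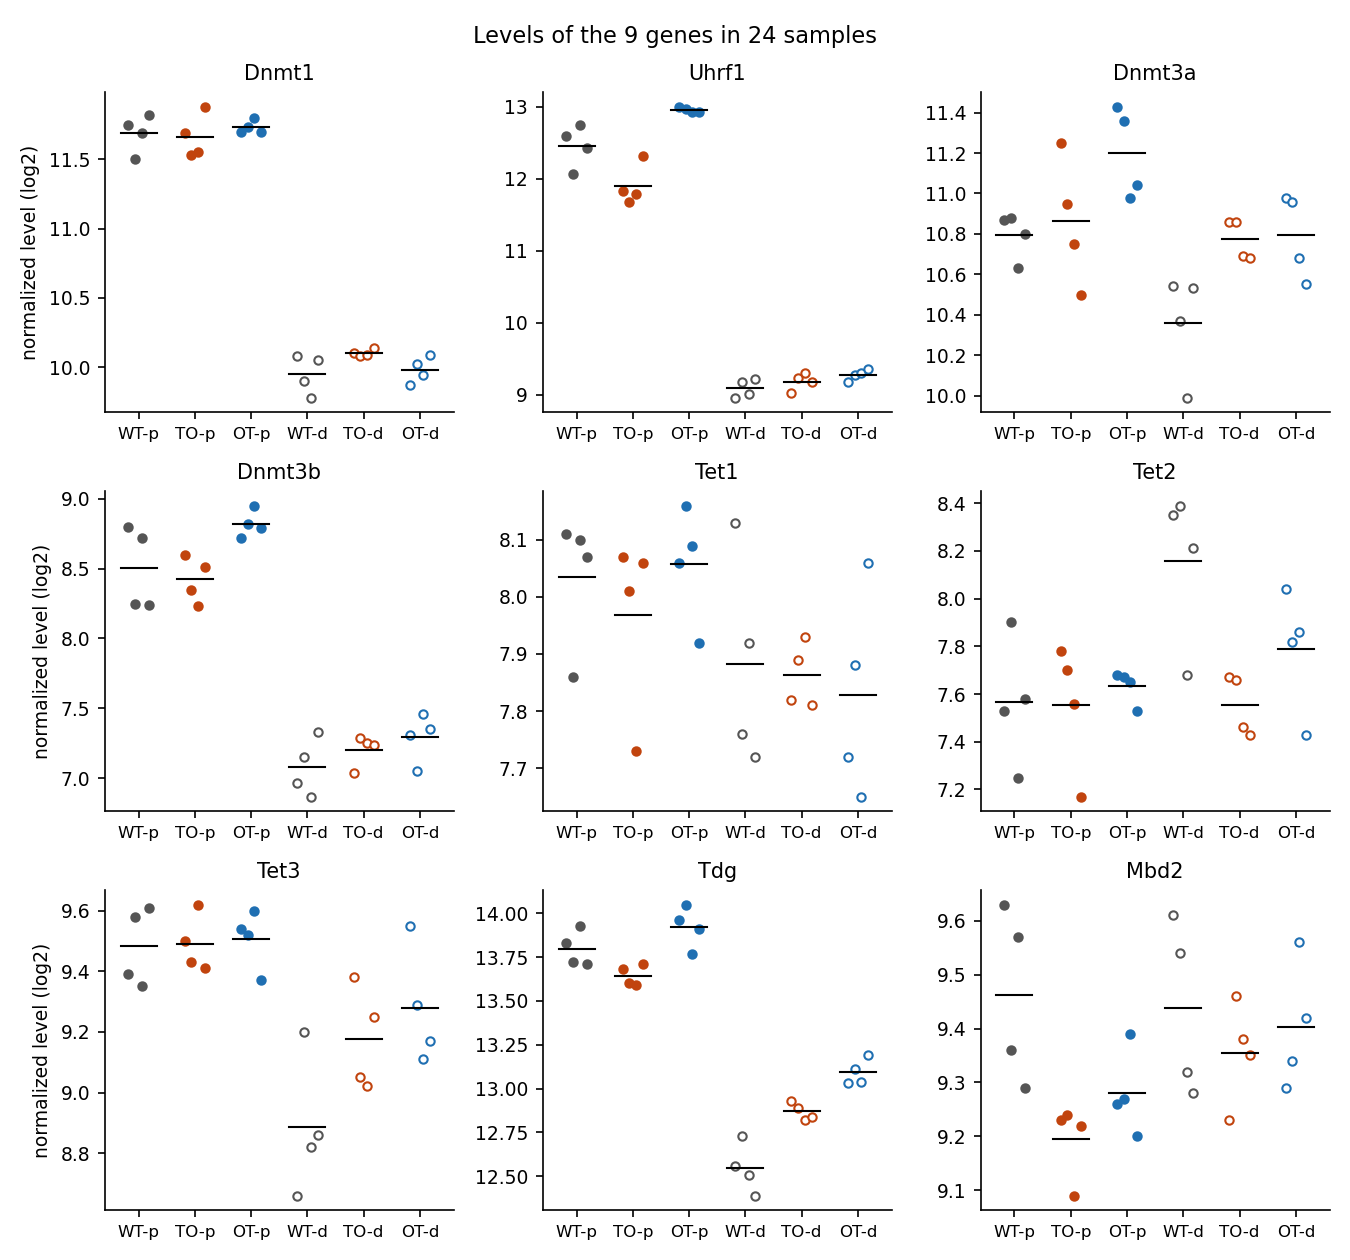
Normalized log2 level of each of the 9 genes (vertical axis, a separate scale for each gene) in the 24 samples, by group (horizontal axis). Points are samples, filled for proliferation medium (p) and open for differentiation medium (d), lines are means of 4. Uhrf1, Dnmt1, Dnmt3b and Tdg separate the media in every line, and Tet2 is highest in WT-d.

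Uhrf1, which recognises hemimethylated CpG and brings Dnmt1 to replicated DNA, had the widest range of the 9 genes, 3.86 log2 units between group means. In WT-p it was 12.59, 12.07, 12.74 and 12.42, and in WT-d 8.96, 9.17, 9.01 and 9.22. In TO-p it was 11.83, 11.67, 11.78 and 12.31, and in TO-d 9.02, 9.23, 9.30 and 9.17. In OT-p it was 13.00, 12.96, 12.93 and 12.93, and in OT-d 9.17, 9.28, 9.30 and 9.36. All proliferating samples lay above all differentiated ones, OT-p lay above every other sample, and the 3 differentiated groups overlapped. The fitted level was 10.4-fold lower in WT-d than in WT-p (log2 -3.38, SE 0.115, limma adjusted p = 7.07e-17), 6.41-fold lower in TO-d than in TO-p (log2 -2.68, SE 0.108, limma adjusted p = 1.82e-15) and 13.3-fold lower in OT-d than in OT-p (log2 -3.73, SE 0.103, limma adjusted p = 1.69e-18).

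Both probes of Uhrf1, at chr17:55956943-55957002 and chr17:55956840-55956899 on the mm8 build that the array's own annotation uses, gave the same picture. At the other probe the fitted differences between media were -3.06 in WT, -2.43 in TO and -3.32 in OT. Whether a probe lies in an exon or a UTR is not given, since no annotation of mm8 was used here. Within slides, the Uhrf1 difference between media was -3.52 and -2.90 in WT on slides 1 and 3, between -2.81 and -2.50 in TO on all 3 slides, and -3.71 and -3.61 in OT on slides 2 and 3.

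Dnmt1, the maintenance methyltransferase, fell by a similar amount in the 3 lines. Its levels were 11.75, 11.50, 11.69 and 11.82 in WT-p and 10.08, 9.90, 9.78 and 10.05 in WT-d. They were 11.69, 11.53, 11.55 and 11.88 in TO-p and 10.10, 10.08, 10.09 and 10.14 in TO-d. In OT they were 11.70, 11.73, 11.80 and 11.70 in OT-p and 9.87, 10.02, 9.94 and 10.09 in OT-d. No proliferating sample came near a differentiated one, and within each medium the 3 lines overlapped. The fitted difference was -1.71 in WT (95% interval -1.90 to -1.53, 3.28-fold), -1.56 in TO (-1.73 to -1.39, 2.94-fold) and -1.75 in OT (-1.91 to -1.58, 3.35-fold), with limma adjusted p-values of 9.15e-14, 2.6e-13 and 5.24e-15. No difference between lines passed for Dnmt1, in either medium. The fitted values ran from -0.06 to 0.14, and the widest of their 95% intervals reached 0.33 (TO-d against WT-d).

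Dnmt3b, a methyltransferase of new sites, was 8.80, 8.25, 8.72 and 8.24 in WT-p and 6.97, 7.15, 6.87 and 7.33 in WT-d. It was 8.60, 8.35, 8.23 and 8.51 in TO-p and 7.04, 7.29, 7.25 and 7.24 in TO-d. In OT-p it was 8.72, 8.82, 8.95 and 8.79, and in OT-d 7.31, 7.05, 7.46 and 7.35. The media did not overlap in any line, and in WT-p the samples formed a higher and a lower pair. Dnmt3b fell by 1.37 in WT (limma adjusted p = 1.37e-09), by 1.19 in TO (limma adjusted p = 9.08e-09) and by 1.49 in OT (limma adjusted p = 3.15e-11), on the log2 scale.

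Dnmt3a, the other methyltransferase of new sites, changed less than Dnmt3b. Its levels in WT were 10.87, 10.88, 10.63 and 10.80 in proliferation medium and 10.54, 10.37, 9.99 and 10.53 in differentiation medium. In TO they were 11.25, 10.95, 10.75 and 10.50 in proliferation medium and 10.86, 10.86, 10.69 and 10.68 in differentiation medium. In OT they were 11.43, 11.36, 10.98 and 11.04 in proliferation medium and 10.98, 10.96, 10.68 and 10.55 in differentiation medium. All of WT-d lay below WT-p, TO-p spanned the range of TO-d, and OT-p and OT-d touched. The fall passed in WT (-0.41, limma adjusted p = 0.00178) and in OT (-0.37, limma adjusted p = 0.00167), the latter lost without the samples lettered b (-0.30, limma adjusted p = 0.0511). In TO the value was -0.10 (95% interval -0.31 to 0.11).

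The 3 probes of Dnmt3a did not agree. The probe used above lies at chr12:3906882-3907663, another at chr12:3912604-3912663 and the remaining one at chr12:3908241-3908300 (mm8). The array's annotation lists the same 2 RefSeq transcripts for the first and second, and only 1 of them for the remaining one, A_52_P169048. It lists the same Ensembl transcripts for all 3. Few entries are given for any probe, so a transcript that is not listed may still be matched. Probe A_52_P169048 read 8.97, 9.05, 9.00 and 9.02 in OT-p and 7.95, 7.90, 7.92 and 7.82 in OT-d. It read 9.19, 9.02, 9.00 and 9.04 in TO-p and 8.58, 8.64, 8.55 and 8.53 in TO-d. In WT it read 8.58, 8.41, 8.61 and 8.33 in WT-p and 8.25, 8.34, 7.96 and 8.11 in WT-d. OT-d was below every other sample at this probe, while at the probe used above it overlapped TO-d. The fall in OT was -1.14 (limma adjusted p = 3.59e-13) here, against -0.37 and -0.28 at the other probes. TO-d was 0.71 above OT-d (limma adjusted p = 4.86e-08) and OT-d 0.30 below WT-d (fitted -0.30, limma adjusted p = 0.000757), both opposite in sign to the other probes, at which TO-d against OT-d gave -0.07 and -0.32 and OT-d against WT-d gave 0.46 and 0.58. Whether these probes report different transcripts was not tested.

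**Figure D2:**
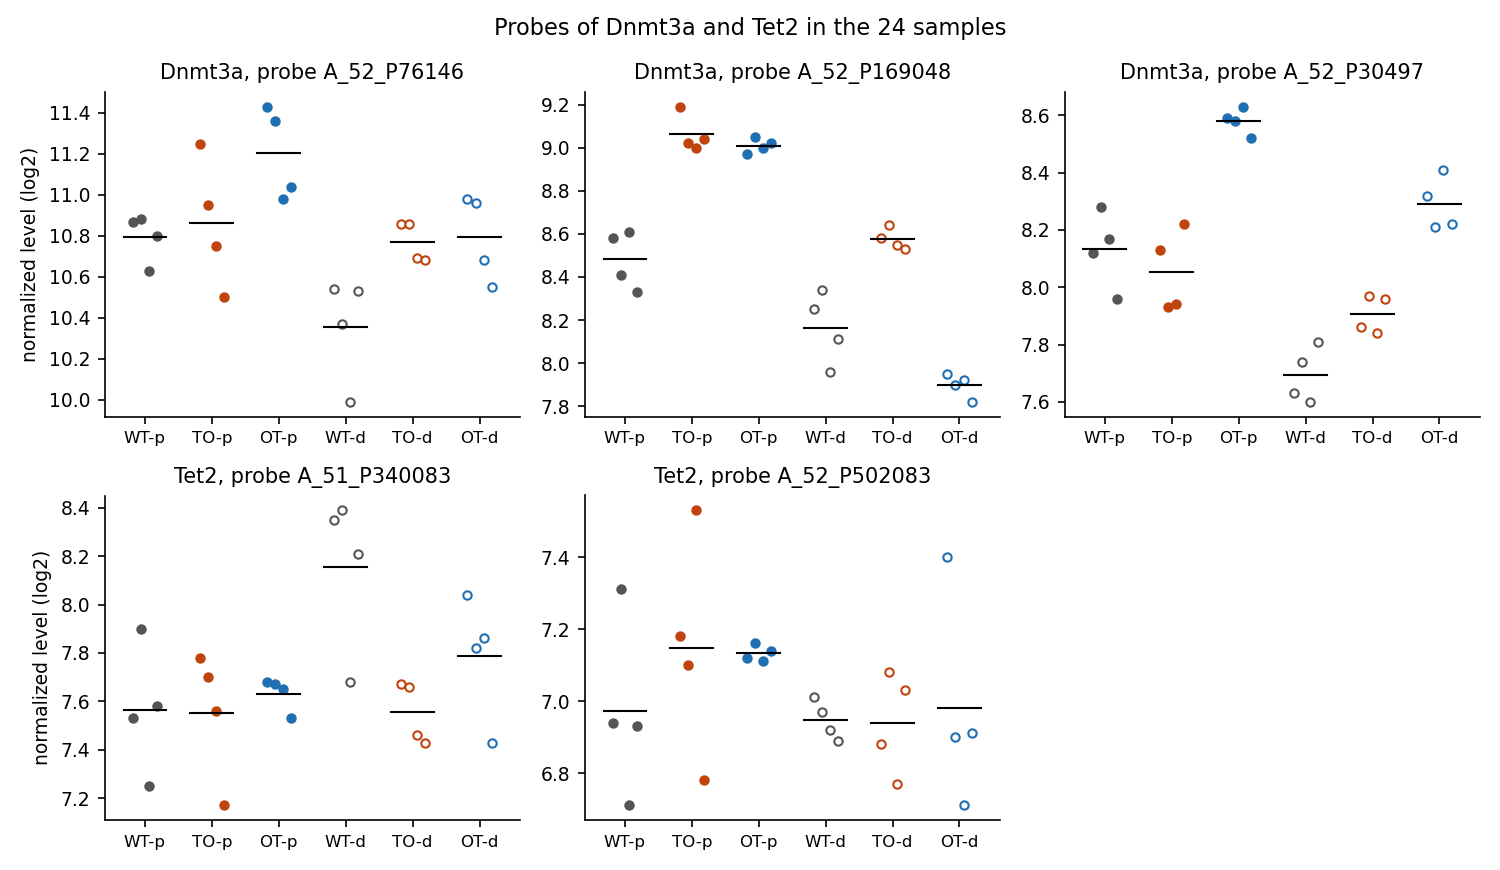
Normalized log2 level (vertical axes, a separate scale for each probe) of the 3 probes of Dnmt3a and the 2 probes of Tet2 in the 24 samples by group. Points are samples and lines are means of 4. OT-d is lowest at Dnmt3a probe A_52_P169048 only, and WT-d is highest at Tet2 probe A_51_P340083 only.

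Among the demethylation genes, Tdg showed the clearest differences. Tdg, the glycosylase that removes oxidised methylcytosine and mismatched thymine, was 13.83, 13.72, 13.93 and 13.71 in WT-p and 12.56, 12.73, 12.51 and 12.39 in WT-d. It was 13.68, 13.60, 13.59 and 13.71 in TO-p and 12.93, 12.89, 12.82 and 12.84 in TO-d. In OT-p it was 13.96, 14.05, 13.77 and 13.91, and in OT-d 13.03, 13.11, 13.04 and 13.19. The media were apart in each line, and the 3 differentiated groups were also apart from each other, in the order OT-d, TO-d, WT-d. Tdg fell by 1.26 in WT (limma adjusted p = 1.79e-12), by 0.74 in TO (limma adjusted p = 8.06e-09) and by 0.88 in OT (limma adjusted p = 6.96e-11), on the log2 scale. A probe that the array also names Tdg lies elsewhere on the chromosome, at chr10:41741623-41741682 rather than chr10:82080043-82080102 (mm8), and is uncertain. Its values were -1.64, -0.75 and -1.13.

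The Tet genes moved little between media, and not in 1 direction. Tet2 was 7.53, 7.90, 7.25 and 7.58 in WT-p and 8.35, 8.39, 7.68 and 8.21 in WT-d. It was 7.78, 7.70, 7.56 and 7.17 in TO-p and 7.67, 7.66, 7.46 and 7.43 in TO-d. In OT-p it was 7.68, 7.67, 7.65 and 7.53, and in OT-d 8.04, 7.82, 7.86 and 7.43. WT-d was high except for replicate 3, which lay within WT-p. Tet2 rose in WT (0.65, limma adjusted p = 8.72e-05) and was the only one of the 9 genes to pass as higher in differentiation medium in any line. In TO its value was -0.04 (95% interval -0.28 to 0.21) and in OT 0.18 (-0.06 to 0.41). The other Tet2 probe, also above background in all 24 samples, gave 0.01 in WT (limma adjusted p = 0.973), so the rise rests on 1 of 2 probes.

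Tet3 was 9.39, 9.58, 9.35 and 9.61 in WT-p and 8.66, 9.20, 8.82 and 8.86 in WT-d, without overlap. It was 9.50, 9.43, 9.62 and 9.41 in TO-p and 9.38, 9.05, 9.02 and 9.25 in TO-d. In OT-p it was 9.54, 9.52, 9.60 and 9.37, and in OT-d 9.55, 9.29, 9.11 and 9.17. TO-d lay below TO-p, and replicate 1 of OT-d lay within OT-p. The fall passed in WT (-0.52, limma adjusted p = 0.000224), in TO (-0.26, limma adjusted p = 0.0407) and in OT (-0.28, limma adjusted p = 0.0141). In TO the call was lost on leaving out any of 7 samples, namely replicate 1, 3 or 4 of TO-p, 2 or 3 of TO-d, or 3 or 4 of WT-p, which feed the shared spread (-0.26 to -0.23, limma adjusted p 0.054 to 0.0863), with the replicate number as a block (limma adjusted p = 0.0531), and with the processed signal, quantile normalization, loess alone or no filter (-0.26 to -0.15, limma adjusted p 0.0557 to 0.361). In OT it was lost with the processed signal (limma adjusted p = 0.0559), without OT-d replicate 3 (-0.22, limma adjusted p = 0.067) and without the samples lettered b (-0.22, limma adjusted p = 0.106). A Tet3 probe at chr6:83368407-83368466 (mm8), also above background in all 24 samples, passed in no line, with -0.16 in WT, -0.09 in TO and -0.17 in OT (limma adjusted p 0.103 to 0.486). At the remaining one, above background in 17 samples, the values were -0.14, -0.08 and -0.20, of which the last passed (limma adjusted p = 0.0142). The fall in WT and TO thus rests on 1 of 3 probes. Both other probes were lower in TO-p against OT-p (-0.27 and -0.17, limma adjusted p 0.0179 and 0.0492), where the probe used gave -0.06.

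Tet1 ranged over only 0.23 log2 units between group means, from 8.06 in OT-p to 7.83 in OT-d, and every neighbouring pair of groups in that order overlapped. Its samples lay between 7.92 and 8.16 in OT-p and between 7.65 and 8.06 in OT-d. That difference passed (-0.21, limma adjusted p = 0.0263), though the call was lost without replicate 1 or 2 of OT-p or replicate 1, 2 or 3 of OT-d (-0.23 to -0.17, limma adjusted p 0.0506 to 0.0975) and with the processed signal (limma adjusted p = 0.0599). WT (-0.17) and TO (-0.13) did not pass. The WT value passed without WT-p replicate 2 or WT-d replicate 1 (limma adjusted p 0.0367 to 0.0493), and with loess alone.

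Mbd2, the methyl-CpG reader, did not pass between media in any line, with values of -0.06 in WT (95% interval -0.24 to 0.12), 0.15 in TO (-0.02 to 0.32) and 0.11 in OT (-0.04 to 0.27). The TO value of Mbd2 passed with the processed signal and with quantile normalization, and its WT value with loess alone. Its levels were 9.63, 9.36, 9.57 and 9.29 in WT-p, 9.23, 9.24, 9.09 and 9.22 in TO-p, and 9.26, 9.27, 9.39 and 9.20 in OT-p. TO-p lay below WT-p, and OT-p overlapped both. The other Mbd2 probe was above background in 7 samples only and is not used to judge these differences.

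**Figure D3:**
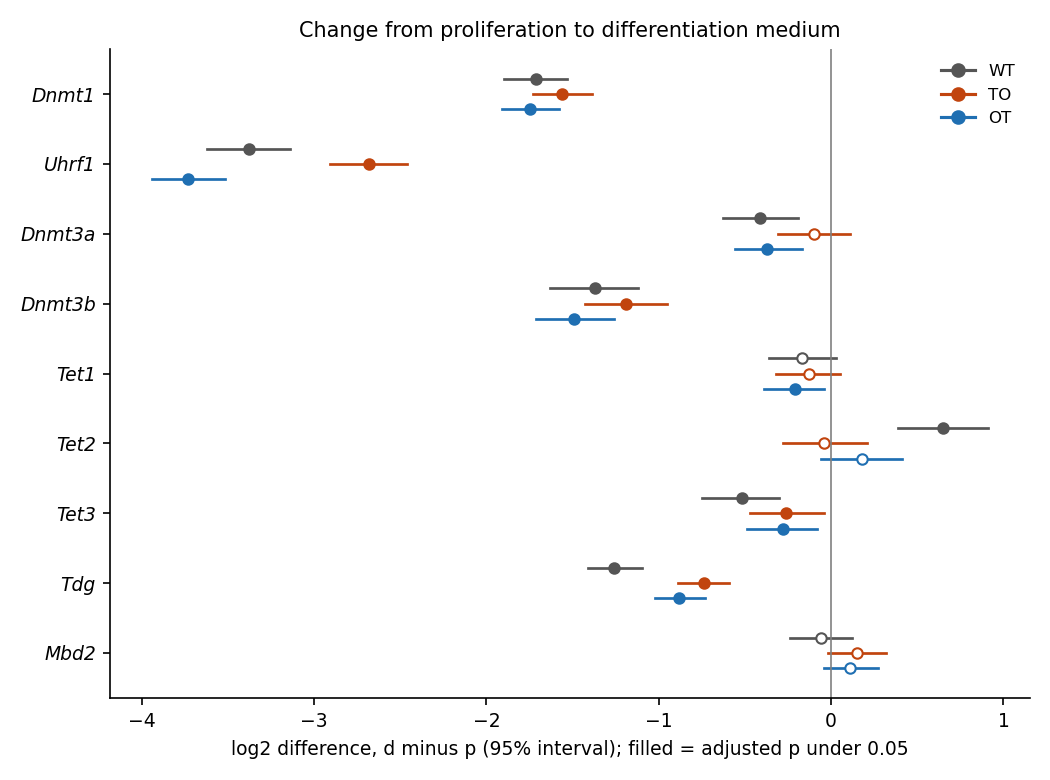
Fitted log2 difference between differentiation and proliferation medium (horizontal axis, below 0 is lower in differentiation medium) for each gene in WT, TO and OT, with 95% intervals. Filled points passed at an adjusted p under 0.05. Uhrf1 lies farthest to the left, from -3.73 in OT to -2.68 in TO, and Tet2 in WT is the only filled point to the right of 0.

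The next question was whether the lines differed within a medium, which for TO against OT compares the fusion that binds cobalamin with the one that does not. In proliferation medium 4 of the 9 genes passed between TO-p and OT-p, all lower in TO-p, against 55.9% of all genes (25.9% lower). Uhrf1 was 2.12-fold lower in TO-p (log2 -1.09, SE 0.108, limma adjusted p = 1.39e-08), with no overlap, and within slides 1, 2 and 3 the difference was -1.17, -0.88 and -1.28. Tdg (-0.30, limma adjusted p = 0.001) and Dnmt3b (-0.36, limma adjusted p = 0.0106) were also lower without overlap, though Dnmt3b was not called without TO-p replicate 3 (-0.27, limma adjusted p = 0.0589). Dnmt3a was lower with overlap (-0.33, limma adjusted p = 0.00637) and was not called without a dye term (limma adjusted p = 0.074) or without the samples lettered b (-0.25, limma adjusted p = 0.129). At its probe A_52_P169048 the difference was 0.02 (limma adjusted p = 0.803). The median of the 9 genes was -0.09, and that of all genes 0.02.

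Against WT-p, TO-p had lower Uhrf1 (1.53-fold, log2 -0.61, limma adjusted p = 7.83e-05), with replicate 4 of TO-p inside the range of WT-p, and lower Mbd2 (-0.27, limma adjusted p = 0.00853). These 2 of 9 stand against 34.3% of all genes. Dnmt3a gave 0.08 at the probe used, but at probe A_52_P169048 TO-p (9.00 to 9.19) lay above WT-p (8.33 to 8.61). At its probe A_52_P30497 the 2 groups overlapped (7.93 to 8.22 in TO-p and 7.96 to 8.28 in WT-p). Mbd2 was not called without WT-p replicate 3 (-0.21, limma adjusted p = 0.0891) or without the samples lettered b (-0.24, limma adjusted p = 0.0867). Tdg gave -0.17 (limma adjusted p = 0.0527) and passed on leaving out any of 9 samples (-0.21 to -0.17, limma adjusted p 0.0171 to 0.0456), so it sits at the threshold. Those samples were replicates 2 and 4 of WT-p, all 4 of WT-d, and replicate 4 of TO-p, of OT-p and of OT-d. Tdg also passed here with the processed signal, the deposited series table, quantile normalization and loess alone.

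OT-p had higher Uhrf1 (0.48, limma adjusted p = 0.000357) and Dnmt3a (0.41, limma adjusted p = 0.000698) than WT-p, both without overlap, and higher Dnmt3b (0.30, limma adjusted p = 0.0238) and lower Mbd2 (-0.18, limma adjusted p = 0.041) with overlap. These 4 of 9 stand against 44.3% of all genes. Dnmt3b was not called without replicate 2 or 4 of OT-p or of WT-p (0.20 to 0.28, limma adjusted p 0.0531 to 0.182) or with loess alone (0.25, limma adjusted p = 0.0756), nor Dnmt3a without the samples lettered b (0.35, limma adjusted p = 0.0502). Mbd2 was not called on leaving out any of 12 samples (-0.19 to -0.15, limma adjusted p 0.0502 to 0.157), namely replicates 1 and 3 of WT-p, 1 and 2 of TO-p, 1, 2 and 4 of OT-p, all 4 of TO-d and replicate 4 of OT-d. Nor was it called without the samples lettered b (-0.10, limma adjusted p = 0.52), or with the processed signal, quantile normalization, no filter, no dye term or slide as a covariate (-0.19 to -0.15, limma adjusted p 0.0502 to 0.117). The value of Tdg, 0.13, passed without replicate 3 of WT-p or of OT-p (limma adjusted p 0.0361 to 0.0431).

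In differentiation medium none of the 9 genes passed between TO-d and OT-d at an adjusted p under 0.05 in limma, against 39.9% of all genes, while 2 had an unadjusted p under 0.05. These were Tet2 (-0.28, 95% interval -0.54 to -0.02) and Tdg (-0.16, -0.32 to -0.00). Tdg passed without WT-d replicate 2 (-0.18, limma adjusted p = 0.04), and Tet2 without WT-d replicate 3 or OT-d replicate 4 (-0.35 to -0.30, limma adjusted p 0.035 to 0.0433). Tdg also passed with the processed signal and with the series table. Uhrf1, at -0.04, had an interval from -0.28 to 0.20.

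Both transfected lines differed from WT in differentiation medium in the same 3 genes. Between TO-d and WT-d, 3 of 9 passed, against 46.6% of all genes, with Tdg higher (0.35, limma adjusted p = 0.00133), Dnmt3a higher (0.39, limma adjusted p = 0.0076) and Tet2 lower (-0.66, limma adjusted p = 0.000374), each without overlap. Between OT-d and WT-d, 4 of 9 passed, against 51.7% of all genes. Tdg was 1.42-fold higher (0.51, limma adjusted p = 3.43e-06) and Dnmt3a higher (0.46, limma adjusted p = 0.000613) without overlap, Tet3 was higher (0.30, limma adjusted p = 0.0204) and Tet2 lower (-0.38, limma adjusted p = 0.0102) with overlap. WT-d is the shared group of both comparisons.

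Of these calls, those of Tdg and Dnmt3a and the Tet2 difference between TO-d and WT-d held whichever single sample was left out. The other Tet2 probe, however, gave -0.02 for TO-d and -0.00 for OT-d against WT-d. Dnmt3a in TO-d was not called without a dye term (limma adjusted p = 0.0543) or without the samples lettered b (0.25, limma adjusted p = 0.201), and in OT-d it had the opposite sign at probe A_52_P169048 (-0.30). Tet2 in OT-d was not called without WT-d replicate 4 (-0.28, limma adjusted p = 0.079), without a dye term (limma adjusted p = 0.0636) or without the samples lettered b (-0.32, limma adjusted p = 0.132). Tet3 in OT-d was not called without WT-d replicate 4 or OT-d replicate 1 (0.24 to 0.27, limma adjusted p 0.065 to 0.0697), and on slide 3, the only one with both groups, its difference was -0.06. It was also not called with loess alone or slide as a covariate (limma adjusted p 0.052 to 0.0565), and gave 0.18 and 0.12 at the other probes, which did not pass. Tet3 in TO-d (0.26) passed without the samples lettered b (0.34, limma adjusted p = 0.0466) and without WT-d replicate 2 or OT-d replicate 3 (0.29 to 0.39, limma adjusted p 0.00764 to 0.0422). It also passed with the processed signal and with loess alone.

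**Figure D4:**
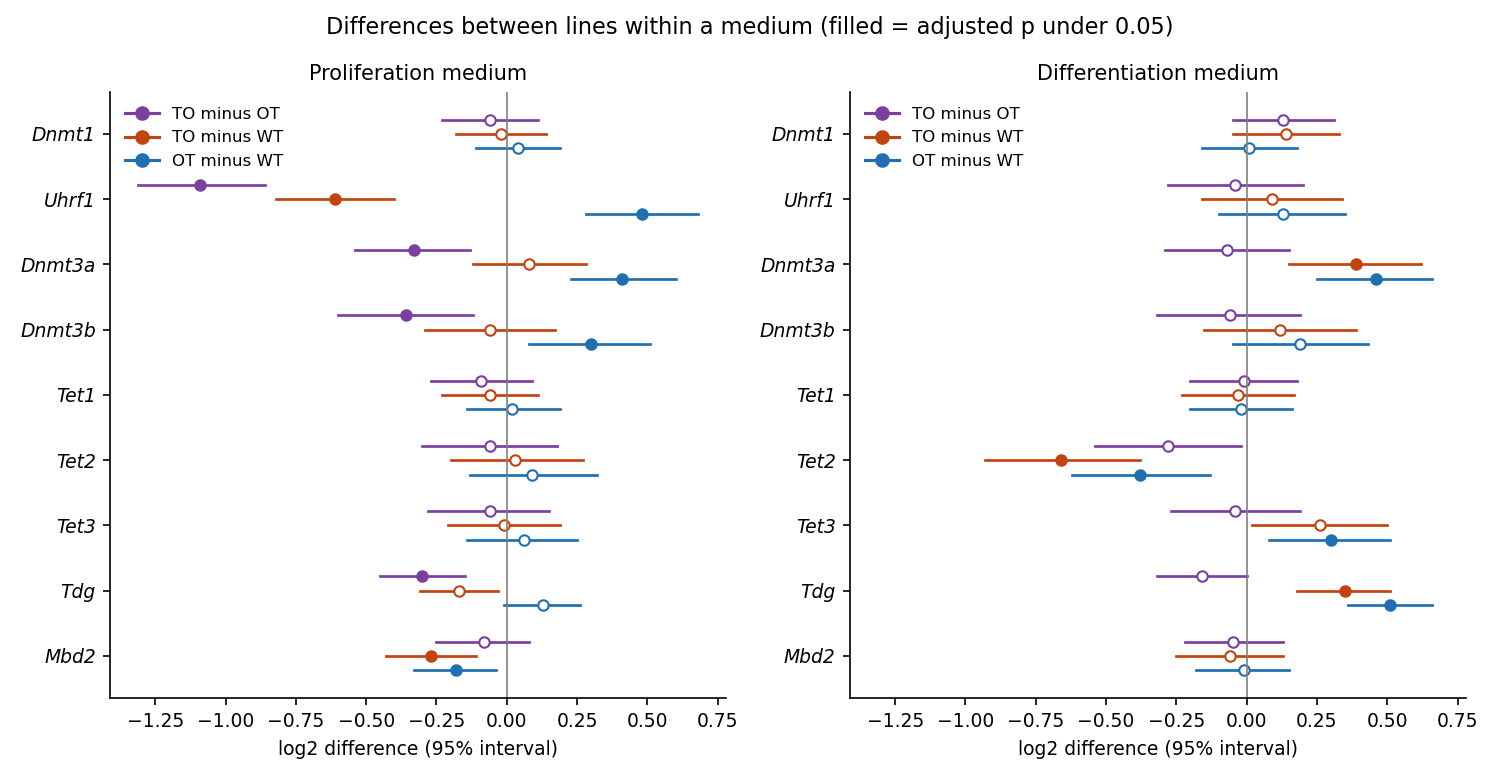
Fitted log2 differences between lines in proliferation medium (left) and differentiation medium (right), with 95% intervals; horizontal axes are log2 units and filled points passed at an adjusted p under 0.05. On the left Uhrf1 lies at -1.09 for TO against OT, the difference farthest from 0, and on the right Tet2 and Tdg set both transfected lines apart from WT on opposite sides of 0.

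Whether a line responded to the medium otherwise than another was tested as a difference of the differences. For Uhrf1, TO fell less than OT, by 1.05 log2 units (limma adjusted p = 1.46e-05), and less than WT, by 0.70 (limma adjusted p = 0.00174), and its other probe gave 0.89 and 0.64 (limma adjusted p 0.000566 and 0.0121). OT against WT gave -0.35 (limma adjusted p = 0.0704), which passed without replicate 1 or 3 of WT-p, replicate 4 of TO-p or replicate 3 of OT-p (-0.45 to -0.34, limma adjusted p 0.0221 to 0.0409). In differentiation medium no Uhrf1 difference between lines passed (-0.04 to 0.13). At the probes that stand for the genes, Uhrf1 was the 1 gene of the 9 that passed for TO against OT, against 40.2% of all genes.

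For Tdg, TO fell less than WT by 0.52 (limma adjusted p = 0.000631) and OT less than WT by 0.38 (limma adjusted p = 0.00373). For Tet2, the response of TO was 0.69 below that of WT (fitted -0.69, limma adjusted p = 0.00385) and that of OT 0.47 below (fitted -0.47, limma adjusted p = 0.0257), which the other probe did not show (-0.18 and -0.15). The Tet2 difference between OT and WT was not called without replicate 1 or 3 of WT-p, replicate 3 of OT-p, or replicate 4 of WT-d or OT-d (-0.42 to -0.37, limma adjusted p 0.0508 to 0.0921). Nor was it called without the samples lettered b (-0.28, limma adjusted p = 0.398), without a dye term (-0.46, limma adjusted p = 0.132) or with loess alone (-0.40, limma adjusted p = 0.11). In all, 3 of 9 genes passed for TO against WT, against 36.2% of all genes, and 2 of 9 for OT against WT, against 34.8%.

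Values near the threshold in these tests were those of Dnmt3a and Tet3. Dnmt3a gave 0.27 for TO against OT and 0.31 for TO against WT, and both passed without TO-p replicate 1 or WT-d replicate 4 (0.32 to 0.46, limma adjusted p 0.014 to 0.0496). The latter also passed with the processed signal and with loess alone. Dnmt3a probe A_52_P169048 differed in this. Its means were 9.01 in OT-p and 7.90 in OT-d, 9.06 in TO-p and 8.58 in TO-d, and 8.48 in WT-p and 8.17 in WT-d. The remaining probe, A_52_P30497, had 8.58 in OT-p and 8.29 in OT-d, and 8.13 in WT-p and 7.70 in WT-d. Tet3 passed without WT-d replicate 2 for TO against WT (0.39, limma adjusted p = 0.0333) and for OT against WT (0.42, limma adjusted p = 0.0221). The former also passed with loess alone.

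Replication genes fell in differentiation medium, as the maintenance enzymes did. The list held 16 replication and proliferation genes, among them the Mcm helicase subunits, Pcna and Rrm2. In differentiation medium 16 of 16 were lower in each line, against 30.9% of all genes in WT, 26.3% in TO and 31.0% in OT. The medians of the list were -3.28 in WT, -2.53 in TO and -3.35 in OT. In TO-p, 11 of 16 were lower than in OT-p (median -0.84), against 25.9% of all genes. Against WT-p 10 were lower (median -0.52), where 34.3% of all genes passed in either direction. In neither comparison was any of the 16 higher. Their mean level was 12.30 to 12.98 in TO-p, 12.82 to 13.22 in WT-p and 13.33 to 13.43 in OT-p, the same order as for Uhrf1, whereas Dnmt1 did not pass between TO-p and OT-p (-0.06). In differentiation medium it was 9.48 to 10.10 in WT-d, 9.71 to 9.94 in TO-d and 10.09 to 10.37 in OT-d. The value of 10.10 was that of WT-d replicate 4, the only WT-d sample on an array with a proliferating sample. The other WT-d samples gave 9.48 to 9.54. TO-d replicates 1 and 4 and OT-d replicates 1, 2 and 4 also shared an array with a proliferating sample. Line and array partner were thus not balanced, and the part of the partner in these values was not tested. The part of proliferation in the levels of Uhrf1, Dnmt1, Dnmt3b and Tdg was not tested.

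Since the media form separate clusters, the relation was described within each medium, over 12 samples that share lines, arrays and normalization. In proliferation medium Uhrf1 followed the mean of the replication genes at r = 0.98 (0.99 without the 2 samples farthest from the median). Tdg gave r = 0.87 (0.81), Dnmt3b r = 0.77 (0.70) and Dnmt1 r = 0.61 (0.25), so the value for Dnmt1 rests on those 2 samples. In differentiation medium the values were 0.69 (0.55) for Uhrf1, 0.65 (0.43) for Tdg, 0.52 (0.74) for Dnmt3b and 0.19 (0.09) for Dnmt1. These values include the differences between lines. Within groups, as deviations from the group means over all 24 samples, r was 0.73 for Uhrf1, 0.69 for Dnmt1, 0.47 for Dnmt3b and 0.15 for Tdg.

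**Figure D5:**
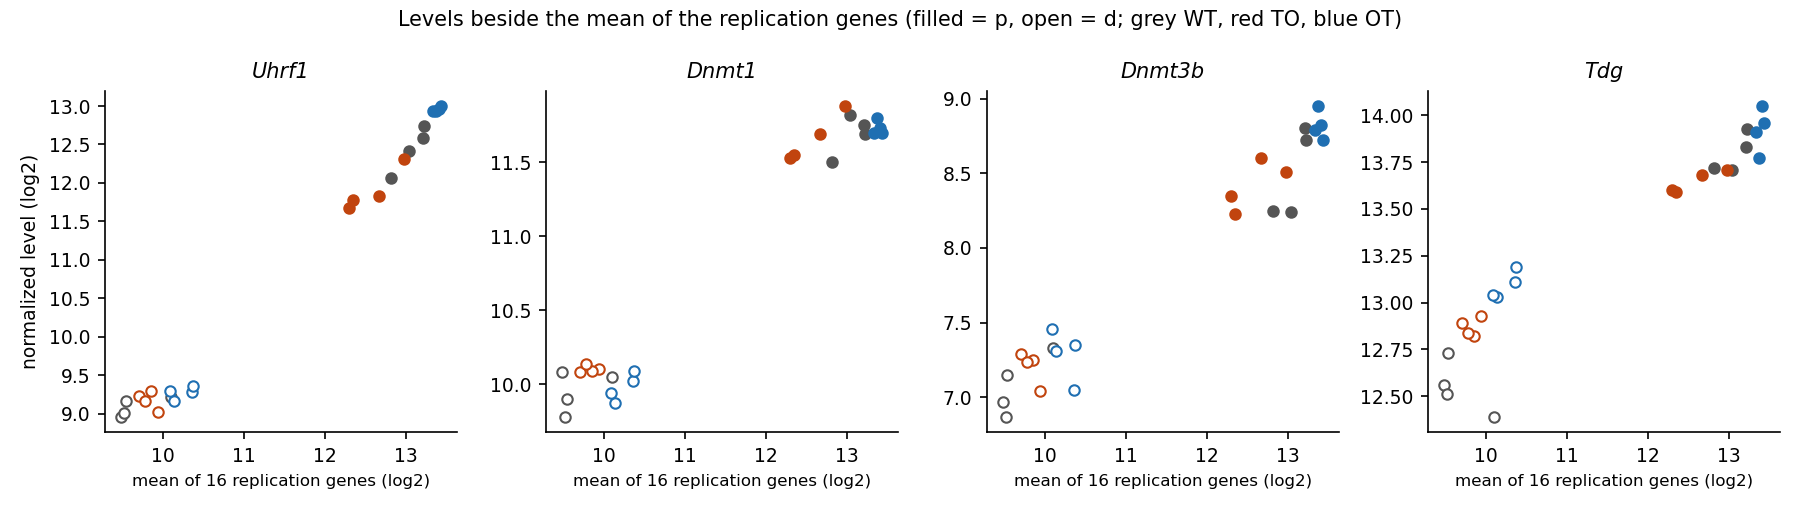
Normalized log2 level of Uhrf1, Dnmt1, Dnmt3b and Tdg (vertical axes, a separate scale for each gene) against the mean log2 level of 16 replication genes (horizontal axes) in the 24 samples. Filled points are proliferation medium, open points differentiation medium, grey WT, red TO and blue OT. The media form separate clusters, and within proliferation medium Uhrf1 rises with the replication genes from TO to OT.

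The genes with the most similar patterns over all 24 samples, a measure that the difference between media dominates, were Fam111a, Mcm4 and Dtl for Uhrf1 (r = 1.00), then E2f7 and Rrm2 (0.99). For Dnmt1 they were the polymerase subunit Pold1 (1.00), then Gins1, Trip13, Dna2 and Blm (0.99). For Dnmt3b they were Cenpn, Spdl1, Chek1 and E2f7 (0.99) and Skp2 (0.98), and for Tdg Oxct1, Myef2, Lmnb2, Bdh1 and Prps1 (0.98). The remaining members had less close neighbours, with Nav3 and Tcf4 (0.90) for Tet3, Kat6a and Taf2 (0.89) for Dnmt3a, N4bp2l2 (0.88) for Tet2, Necab2 (0.81) for Tet1 and Magea9-ps (0.74) for Mbd2.

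Among 16 tested partners and recruiters of the methyltransferases, 6 were lower and 3 higher in differentiation medium in each line. Of all genes, 30.9% were lower in WT, 26.3% in TO and 31.0% in OT, and 66.5, 52.3 and 67.6% passed in either direction. These shares also stand beside the counts between media of the lists that follow. The 4 largest changes among the partners were of the same genes in all 3 lines. The remodeller Hells, which opens heterochromatin for methylation, changed by -2.94 in WT, -1.88 in TO and -3.56 in OT. Its activator Cdca7 changed by -2.14, -1.17 and -2.32, the replication clamp Pcna, which is also on the replication list, by -2.02, -1.54 and -2.49, and Smchd1, which is needed for methylation of the inactive X, by -0.99, -0.81 and -1.04. The limma adjusted p-values of these 12 changes were at most 3.89e-08. In TO-p, 9 of the 16 were lower than in OT-p and 3 higher. Of all genes, 25.9% were lower and 55.9% passed there, which also stands beside the counts of the next lists. In TO-p against OT-p Hells was at -1.46 (limma adjusted p = 1.43e-06) and Cdca7 at -1.03 (limma adjusted p = 4.59e-08). The median of the list in that comparison was -0.26.

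Of the 12 NuRD subunits, 9 were lower in differentiation medium in WT, 8 in TO and 8 in OT, and 1 was higher in each, with medians of -0.67, -0.36 and -0.48. The helicase Chd3 changed by -1.23, -1.01 and -0.97. In TO-p 8 of 12 were lower than in OT-p and 2 higher, among them the deacetylase Hdac1 at -0.91 (limma adjusted p = 2.92e-08). Of 8 other methyl-CpG readers tested, 4, 4 and 5 were lower and 2, 3 and 2 higher in WT, TO and OT. Zbtb4 rose by 1.23, 0.79 and 1.71, and Mbd3, a NuRD component that reads methylated DNA poorly, changed by -1.21, -0.65 and -0.75.

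Of 15 genes of base excision repair and demethylation tested, 10, 10 and 9 were lower in differentiation medium in WT, TO and OT, and 0, 1 and 3 higher. The scaffold Xrcc1 changed by -1.27, -0.76 and -1.04. Between TO-p and OT-p, 8 of the 15 were higher in TO-p and 4 lower (median 0.17). Ung, which removes uracil from DNA, was lower in TO-p by 1.55 log2 units against OT-p (fitted -1.55, limma adjusted p = 1.71e-09), and fell by 2.12 in OT between media (limma adjusted p = 9.75e-13). Neil1 went the other way between these groups, with means of 9.55 in TO-p and 8.20 in OT-p. Of 9 genes that supply or assist the Tet enzymes, 3, 0 and 4 were higher and 2, 4 and 4 lower, and Idh1, which makes their cosubstrate oxoglutarate, fell by 1.14 in WT and by 0.96 in TO, while its group means in OT were 8.60 in OT-p and 8.41 in OT-d.

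The methyl donor genes included the cobalamin enzyme Mtr, which makes methionine. Mtr changed by -1.28 in WT, -0.88 in TO and -1.63 in OT between media (limma adjusted p 8.07e-11, 2.32e-08 and 1.02e-13), and Ahcy, which clears the product inhibitor of methyltransferases, by -0.91, -1.18 and -1.12. Of the 9 genes, 4, 5 and 5 were lower and 3, 2 and 2 higher. Between TO-p and OT-p, 1 of the 9 passed, Ahcyl1 at 0.44 (limma adjusted p = 0.00168). In differentiation medium Mtr in TO-d exceeded its level in OT-d (0.62, limma adjusted p = 1.9e-05) and in WT-d (0.53, limma adjusted p = 0.000231). Against OT-d, Mtr was the 1 gene of the 9 that passed, where 39.9% of all genes passed in either direction. With WT-d as reference, 2 of the 9 passed as higher in TO-d, Mtr among them, and 4 as lower (median -0.21). The share of all genes there was 46.6% in either direction. For OT-d against WT-d, 5 of the 9 passed, all as lower, against 51.7% of all genes.

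A list of 14 germline genes that promoter methylation is known to keep silent in body tissues was also examined, and only 3 of them were well above background and tested. These 3 were above background in all samples of every group, so they were not silent here, and their levels are given as a description only. Of all genes, 46.6% passed between TO-d and WT-d and 51.7% between OT-d and WT-d. Rhox5, a homeobox gene often active in cell lines, had group means of 17.42 ± 0.121 (SD, n = 4) in WT-p, 17.38 ± 0.139 in TO-p, 17.04 ± 0.312 in OT-p, 16.47 ± 0.426 in WT-d, 17.09 ± 0.294 in TO-d and 17.14 ± 0.209 in OT-d. WT-d was the lowest group, and Rhox5 was higher in TO-d (0.68, limma adjusted p = 0.0012) and in OT-d (0.69, limma adjusted p = 0.000242) than in WT-d. Asz1, a germ cell gene, was likewise higher in TO-d (0.58, limma adjusted p = 0.00027) and in OT-d (0.63, limma adjusted p = 1.97e-05). Brdt, a bromodomain gene of the testis, went the other way, with means of 8.04 in WT-d, 7.61 in TO-d and 7.63 in OT-d (fitted -0.44 and -0.42, limma adjusted p 0.00167 and 0.000704). It was also the 1 gene of the 3 that passed between TO-p and OT-p, where it was higher (0.64, limma adjusted p = 3.12e-06). Between 8 and 10 of the 14 were above background in no sample of a group, and DNA methylation itself was not measured on these arrays.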

How the data were processed

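Scanner tables written by Agilent Feature Extraction, per the file headers, hold a mean signal and a local background per spot and dye, deposited by the authors as raw intensity. The members and gene lists were chosen with earlier results of these data known. Spots marked as outliers (0.321% of values) were left out before background correction, a step set after the correction failed on 1 array. In limma 3.58.1 (R 4.3.3, statmod 1.5.0) followed normexp with an offset of 50, removal of control spots, loess within arrays, Aquantile between arrays and log2 intensity per dye. Gene names were brought up to date through RefSeq accessions. Each gene was read at its probe of highest mean, and stayed in the test where 1 or more groups had that probe well above background in each of their 4 samples, which left 16241 and removed 11356.

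The model had 6 group means, a dye term and the array as a random block (intraspot correlation 0.443, prior df 5.31), and calls were two-sided, at p under 0.05 after Benjamini-Hochberg adjustment across the genes tested. The procedure was tested on simulated data. Fitted differences include the dye term and can differ from differences of means. Replicate numbers do not pair the samples: numbers 1 and 2 are Cy5 and 3 and 4 Cy3 in every group, and residuals of same-numbered samples of other groups correlated between -0.31 and 0.32. The text names each of the 9 genes with every probe that bears on a result, up to 4 genes a list and comparison by size of change among called genes, and up to 5 genes of like pattern a member. Levels of germline genes and markers are given as a description. The deposited series table holds linear intensity and served as an alternative. The alternatives were quantile normalization, the scanner's processed signal, loess alone, the series table, no dye term, no filter, slide as a covariate, a replicate block, leaving out the samples lettered b, other probes, and each sample left out. The number of arrays limits the precision.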

Additional observations from a re-analysis of the deposited data

Results flagged for a closer look

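In 3 of 102 sets of 4 samples, 1 sample lay far from the other three, and chance sets 1 sample so far apart in about 5% of groups. Uhrf1 probe A_51_P491742 was 8.93 in WT-d replicate 4, with the others between 8.35 and 8.41. That sample was the only one of WT-d on an array with a proliferating sample, and whether this had a part was not tested. Tdg probe A_52_P33287, whose position on the chromosome is not that of Tdg, was 9.29 in TO-d replicate 1, with the others between 9.46 and 9.48. Mbd2 was 9.09 in TO-p replicate 3, with the others between 9.22 and 9.24.

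The response to the medium differed between lines in 6 of 27 tests. Of all genes, 40.2% passed for TO against OT, 36.2% for TO against WT and 34.8% for OT against WT. For Uhrf1 the difference was 1.05 between TO and OT (limma adjusted p = 1.46e-05) and 0.70 between TO and WT (limma adjusted p = 0.00174). For Tdg it was 0.52 for TO against WT (limma adjusted p = 0.000631) and 0.38 for OT against WT (limma adjusted p = 0.00373). For Tet2 it was -0.69 for TO against WT (limma adjusted p = 0.00385) and -0.47 for OT against WT (limma adjusted p = 0.0257).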

How the results depend on the processing

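The count of genes called in each of the 12 comparisons stayed within 1.5 times its value under all alternatives run. Of the 42 called differences of the 9 genes, 28 were called in each of the 33 alternatives that kept the probe, among them every call of Uhrf1 and Dnmt1, and 14 of the 66 others were called in at least 1. The replicate block, in place of the dye term, gave 9034 genes for TO-p against OT-p (9075 without it), and changed 1 call of the 9 genes, that of Tet3 in TO (-0.26). The count of called members moved by over 1.5 times in these cases. For TO-d against OT-d it was 1 with the processed signal and 1 with the series table, in place of 0. Without the samples lettered b it was 1 for TO-p against WT-p, 2 for OT-p against WT-p and 1 for the response of OT against WT. Loess alone gave 6 for the response of TO against WT and 1 for that of OT against WT, and no dye term gave 1 for the latter. Leaving out 1 sample gave 0 to 1 members for TO-d against OT-d, 1 to 3 for TO-p against WT-p, 2 to 5 for OT-p against WT-p, 2 to 4 for OT-d against WT-d, 1 to 2 for the response of TO against OT and 1 to 3 for that of OT against WT. Signs turned for Dnmt3a at probe A_52_P169048 (TO-p against OT-p 0.02, TO-d against OT-d 0.71, OT-d against WT-d -0.30, response of OT against WT -0.86), for Mbd2 at the probe above background in 7 samples (TO-p against WT-p 0.03, OT-p against WT-p 0.07, and -0.15 for OT-d against OT-p, uncalled at the probe used) and for Tet3 on slide 3 (OT-d against WT-d -0.06). Of 83 within-slide differences for called results, this was the 1 with the opposite sign. The cause was not tested. Loess alone moved the share of called genes that were higher from 46.6 to 67.4% for TO-d against OT-d, 54.7 to 39.4% for TO-p against WT-p, 48.6 to 75.6% for TO-d against WT-d, 45.4 to 30.4% for OT-p against WT-p, 51.5 to 61.7% for OT-d against WT-d and 53.6 to 37.7% for WT-d against WT-p. For the responses the move was from 41.6 to 55.0% (TO against OT), 46.9 to 81.5% (TO against WT) and 59.3 to 80.9% (OT against WT). It shifted the median of all genes to 0.11 for TO-d against WT-d, -0.08 for WT-d against WT-p, and 0.14 and 0.11 for the responses of TO and OT against WT, and the processed signal shifted it to 0.19 for WT-d against WT-p. Member changes of that size or less depend on the scaling. Spots dim against background limit the other Mbd2 probe and 1 of the 2 other Tet3 probes, while the remaining one was above background in all 24 samples and passed in no line between media.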

Other observations

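Each array held 2 samples, and a differentiated sample shared its array either with a proliferating or with another differentiated one. Those beside a proliferating sample were WT-d replicate 4, TO-d replicates 1 and 4, and OT-d replicates 1, 2 and 4, so the lines were not balanced in this. Uhrf1 lay between 9.02 and 9.36 in the 6 differentiated samples beside a proliferating sample and between 8.96 and 9.30 in the 6 beside a differentiated one. At the other Uhrf1 probe, A_51_P491742, the former lay between 8.60 and 8.98 and the latter between 8.35 and 8.53, without overlap. Mcm5, a replication gene singled out after its values were seen, lay between 8.92 and 10.70 in the former and between 7.05 and 8.98 in the latter.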
